A study of Mus musculus with 4 samples.

Results

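The vascular endothelial growth factor (VEGF) system was followed across cells of the Tbx1 lineage. The members were 4 ligand genes (Vegfa, Vegfb, Vegfc and Figf, the gene of VEGF-D) and 3 receptor genes (Kdr, Flt1 and Flt4). They were chosen as a gene family by name and matched by Ensembl identifier, and are 7 of the 27514 genes present in all 4 count tables. The cells came from mouse embryos on a Swiss Webster background, and 4 libraries were compared, 1 per group. Control (Ctrl) embryos were Tbx1Cre/+;Rosa26-GFPflox/+ and conditional mutant (cKO) embryos were Tbx1Cre/flox;Rosa26-GFPflox/+, each at embryonic day (E) 8.5 and E9.5. Tbx1Cre takes the place of a Tbx1 copy, so the controls were heterozygous for Tbx1, and the Cre, expressed where Tbx1 is, acts in pharyngeal mesoderm, endoderm and ectoderm alike. Embryos were pooled within each library and GFP-positive, DAPI-negative cells were sorted, so only live cells of the Tbx1Cre lineage were measured. The dissection took in the upper portion of the body at E8.5 and the pharyngeal apparatus and heart at E9.5. The study's summary of samples lists this E9.5 tissue with the back. Stage, dissection and library therefore cannot be told apart, nor can genotype and library. With 1 library per group there was no replicate and no test. Intervals are exact 95% intervals and cover counting error only.

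VEGF ligands are secreted proteins that bind receptor tyrosine kinases on endothelial cells, the cells that line blood and lymphatic vessels and, as endocardium, the heart. VEGF-A, the main driver of vessel growth, binds Kdr (VEGFR2), which carries most of the growth signal, and Flt1 (VEGFR1), which binds it tightly and signals weakly, also in a soluble form that acts as a decoy. VEGF-B binds Flt1 alone. VEGF-C acts through Flt4 (VEGFR3) and Kdr, and VEGF-D through Flt4, and both are best known for the growth of lymphatic vessels. Flt4 has been described as a gene on which the transcription factor TBX1 acts in endothelium. Kdr also marks early mesoderm before the endothelial fate is taken. The libraries counted 3′ ends of transcripts, so soluble Flt1 and the splice forms of Vegfa were not separated. Counts of different genes are not per transcript length, and levels are therefore compared between cells and not between genes.

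The Ctrl and cKO libraries held 1434 and 1090 cells at E8.5 and 5453 and 6266 cells at E9.5, with a median of 15910 to 23984 unique molecular identifiers (UMIs) per cell. Between 2 and 55 cell barcodes were shared by a pair of libraries. Tbx1 itself was at 86.4 and 118 UMIs per 1000000 UMIs of the shared genes (UPM) in Ctrl and cKO at E8.5, and at 103 and 134.5 UPM at E9.5. The 3′ counts do not show whether they come from the deleted part of the gene, so they do not check the labels, and cKO below means the library labelled cKO. For cKO E9.5 the reads were counted against a different list of genes, which cannot be told apart from genotype at E9.5. Its median log2 ratio to Ctrl over the 15130 genes with at least 20 UMIs was -0.26, against 0.04 at E8.5 over 12762 genes.

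Cells were put into groups by marker genes, none of which is a member. A cell entered the endothelial group if it had UMIs of at least 3 of 6 markers (Pecam1, Cdh5, Tie1, Tek, Cldn5 and Esam). It also needed more of these than of epithelial, cardiomyocyte, neural, neural crest or blood markers. Progenitor, heart field, branchiomeric muscle and mesenchyme markers were not compared at this step. The endothelial group held 40 Ctrl and 31 cKO cells at E8.5 and 391 Ctrl and 101 cKO cells at E9.5. These were 2.79%, 2.84%, 7.17% and 1.61% of the cells, shares that the dissection, the pooling and the sort can set. The group is a range and not a cell type: 12, 10, 36 and 22 of its cells had exactly 3 markers. Of other classes' genes, its cells held a median of 0 epithelial and 0 neural markers and of 2 markers of the multilineage progenitor (MLP) class. The medians were 2 (E8.5) and 1 (E9.5) for mesenchyme markers, 1 for anterior second heart field markers, and 1 (E8.5) and 0 (E9.5) for cardiomyocyte markers. By their markers of several classes, 20 of 40, 12 of 31, 116 of 391 and 17 of 101 cells were possible doublets and were kept. Endothelial genes not used in the gate followed it. Emcn, an endothelial sialomucin, was at 166, 189, 432 and 422 UPM inside the group in the same order of libraries, and at 3.56 to 8.15 UPM in all other cells. Icam2, an endothelial adhesion molecule, was at 87.2 to 265 UPM inside and at 2.01 UPM or less outside. The alpha-globin gene Hba-a1 had at most 4 UMIs in the group in any library. A second group, Etv2-positive, held cells outside the first with a UMI of Etv2, the factor that starts the endothelial programme, and of Lmo2 or Tal1 (134, 92, 61 and 50 cells). The remaining groups were named from markers of MLP, branchiomeric muscle (BrM), anterior and posterior second heart field (aSHF and pSHF), mesenchyme, cardiomyocyte and epithelium. The MLP group was broad, with 31.5% of the cells of both E8.5 libraries, then 8.18% (Ctrl) and 13.1% (cKO) at E9.5.

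The member whose level differed most between the E9.5 libraries was Flt4, and the sequence before its start is shown for that reason. The 250 bases before the RefSeq start of Flt4 lie at chr11:49609429-49609678 (GRCm38.p6, plus strand). The capitals mark the only match to the core letters bound by ETS factors, GGAAG on either strand, with its first base at position -103 from the start.
Flt4 promoter: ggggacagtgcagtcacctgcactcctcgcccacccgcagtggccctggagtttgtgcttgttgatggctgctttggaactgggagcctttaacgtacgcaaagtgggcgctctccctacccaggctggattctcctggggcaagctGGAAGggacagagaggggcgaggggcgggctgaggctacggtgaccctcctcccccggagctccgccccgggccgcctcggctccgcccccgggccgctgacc
The window was 68.4% G and C, against a median of 52.4% over 32851 mouse promoter windows of the same length. It held 3 GC boxes (GGGCGG, either strand), a motif found in 32.7% of all windows, and no TATA box (TATAAA, 12.4% of windows). ETS factors such as ETV2, ERG and FLI1 are regulators of endothelial genes, but the ETS core is short and 64.1% of all windows hold it. Among the members it was matched 3 times before Flt1, once each before Kdr, Flt4, Figf and each of 2 annotated starts of Vegfa, and not before Vegfb or Vegfc. The letters AGGTGT, the core of the site bound by T-box factors such as TBX1 (11.8% of windows), were not found in the windows of the 7 members, which says nothing about binding by TBX1 elsewhere. A match here is a run of letters and not a site shown to be bound.

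Kdr was highest in the endothelial and Etv2-positive groups in every library. At E8.5 the endothelial level was 154 UPM in Ctrl (126 UMIs) and 226 UPM in cKO (166 UMIs). At E9.5 it was 212 UPM in Ctrl (1712 UMIs) and 225 UPM in cKO (395 UMIs). Etv2-positive cells held 141.1 and 225 UPM at E8.5 and 165 and 105 UPM at E9.5. At E8.5 these levels did not differ between the groups beyond counting error in either library, and at E9.5 the endothelial level was above the Etv2-positive level by 0.36 (0.14 to 0.59) on the log2 scale in Ctrl and by 1.10 (0.79 to 1.41) in cKO. The next group was the cardiomyocyte group at 28.1 to 29.0 UPM in the Ctrl libraries and 15.6 in cKO E9.5, and mesenchyme at 27.5 in cKO E8.5. Ctrl E9.5 cardiomyocytes and aSHF cells (21.0 UPM) did not differ beyond counting error.

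For Flt1 and Flt4 the step down from endothelial to Etv2-positive cells was larger than for Kdr in each library. Flt1 was at 125, 154, 135 and 115 UPM in endothelial cells (102, 113, 1093 and 202 UMIs) and at 36.9, 26.3, 43.5 and 21.4 UPM in Etv2-positive cells, again with E8.5 before E9.5 and Ctrl before cKO. The endothelial level of Flt1 was 1.64 to 2.55 higher than the Etv2-positive level on the log2 scale. Flt4 was at 46.5 UPM (38 UMIs), 75.0 UPM (55 UMIs), 74.6 UPM (602 UMIs) and 83.1 UPM (146 UMIs) in endothelial cells, and at 10.6, 13.5, 19.5 and 15.8 UPM in Etv2-positive cells. The gap between these groups was 1.93 to 2.47 for Flt4 and lay beyond counting error in all 4 libraries. In the other groups named from markers, with at least 30 cells, Flt4 was at 1.94 UPM or less.

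**Figure D1:**
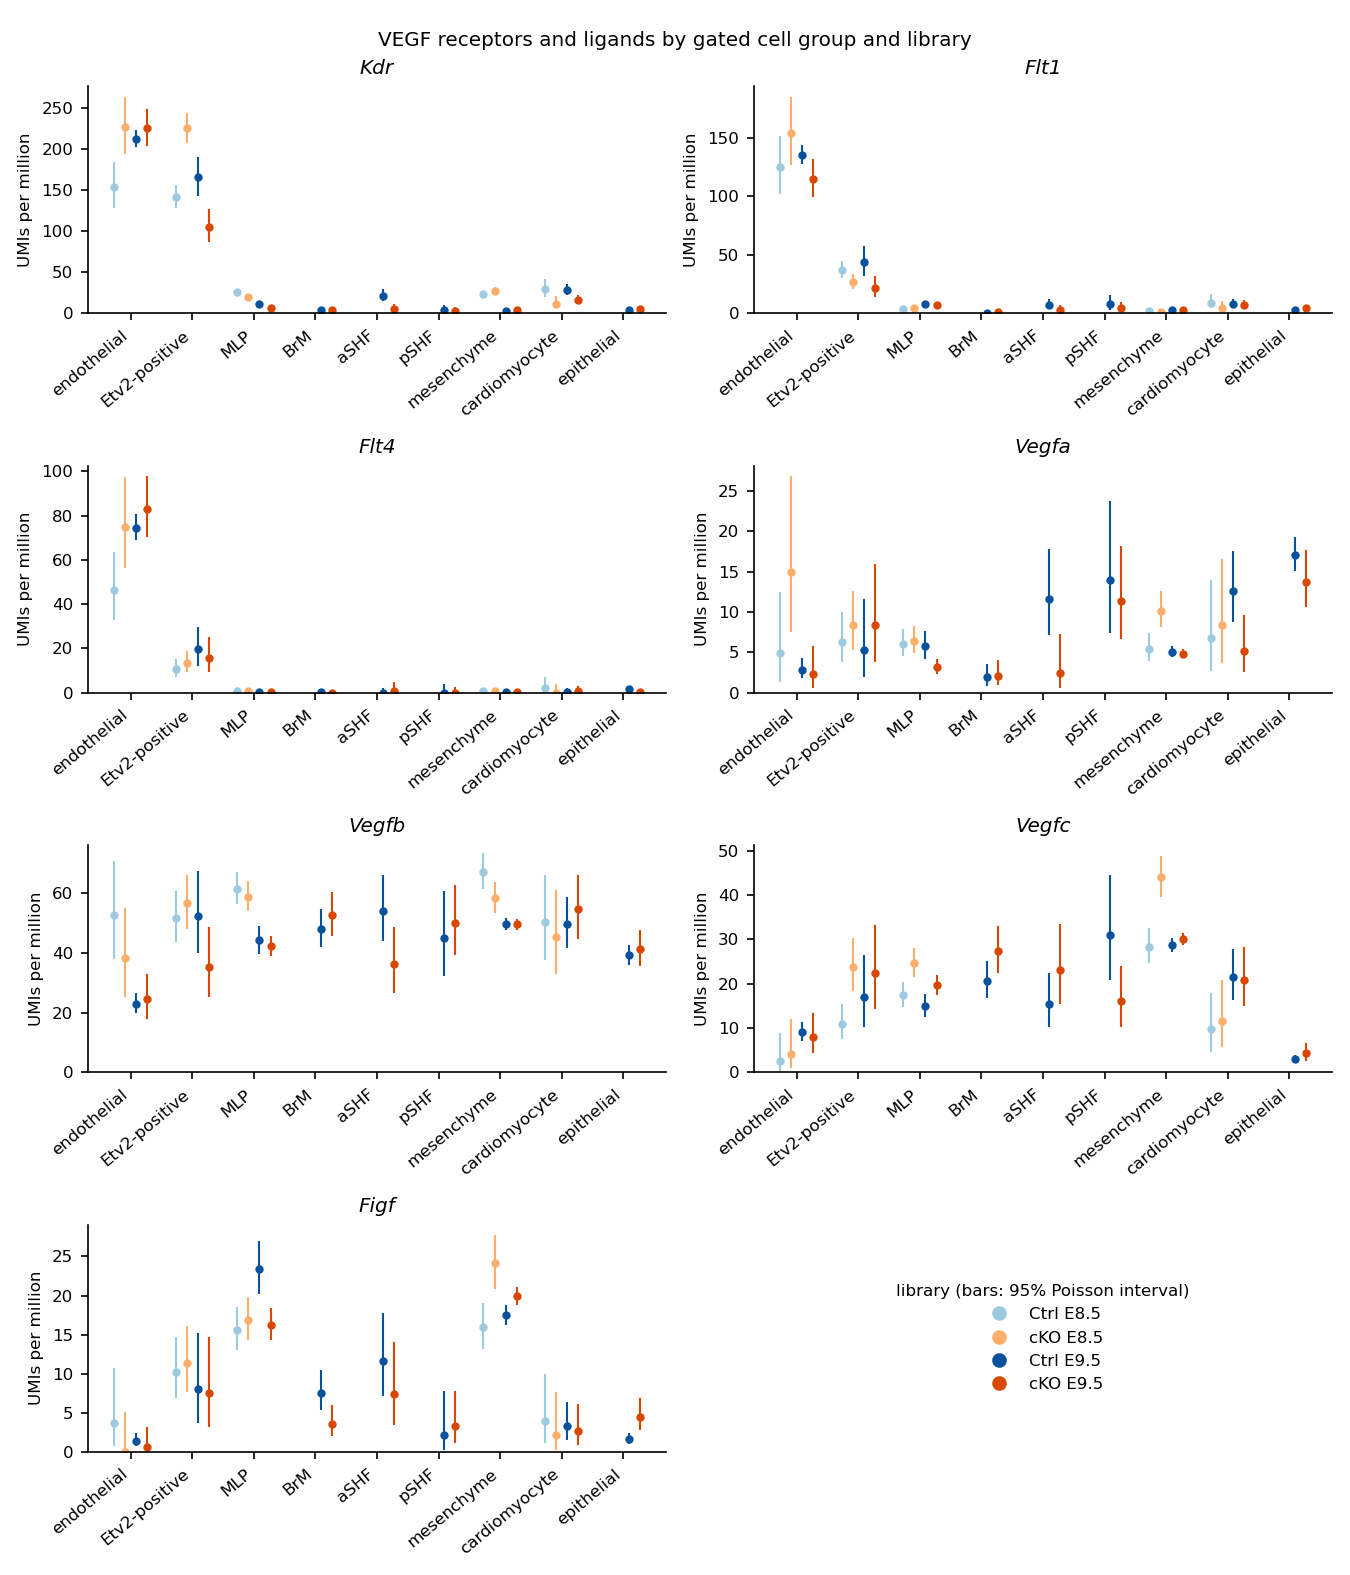
Level of each VEGF gene (UPM, linear axis from 0) in each marker-gated group with at least 30 cells, by library; bars are exact 95% Poisson intervals. Kdr, Flt1 and Flt4 stand highest in the endothelial group, where Flt4 lies between 46.5 and 83.1, while Vegfc and Figf stand low there and higher in mesenchyme.

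Most endothelial cells had a receptor transcript. With each cell thinned to 10000 UMIs, Kdr was detected in 66.7% of Ctrl and 93.3% of cKO endothelial cells at E8.5 and in 83.9% and 82.0% at E9.5, and without thinning in 87.5%, 96.8%, 96.2% and 93.1%. Flt4 was detected in 30.8%, 33.3%, 50.1% and 53.9% of them after thinning and in 50%, 74.2%, 73.9% and 71.3% before. Epithelial cells, which should lack these receptors, were taken as the background at E9.5. Of them, 1.93% and 5.58% had a Kdr UMI, and 1.79% and 0% a Flt4 UMI, in Ctrl and cKO after thinning. For Flt4 this background may be too high in Ctrl, where the epithelial level was above that of mesenchyme beyond counting error. The median depth of the epithelial cells was 18402 and 18246 UMIs, against 19994 and 16619 in endothelial cells. The count of 0 of 215 thinned epithelial cells in cKO E9.5 allows a share of up to 1.40%.

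Endothelial cells often held UMIs of several receptors. At E9.5 all 3 receptors were detected in 30.2% (25.6% to 35.2%) of 367 thinned Ctrl endothelial cells and in 28.1% (19.1% to 38.6%) of 89 cKO cells. No receptor was found in 4.09% and 2.25% of them. Of the Flt4-positive endothelial cells, 160 of 184 in Ctrl and 41 of 48 in cKO also had Kdr, and 9 and 2 cells had Flt4 alone. These shares with Kdr were near the Kdr shares of all thinned endothelial cells given above. The overlap to be expected from receptors detected independently was not computed. At E8.5 the 3 receptors were detected together in 6 of 39 Ctrl and 9 of 30 cKO cells, shares whose intervals overlap (5.86% to 30.5% and 14.7% to 49.4%). Endothelial cells with and without a UMI of an artery gene (Gja4, Gja5, Hey1 or Efnb2) differed in Flt1 and Flt4 in opposite directions at E9.5. Flt1 was at 163 UPM (151 to 176) in the 192 Ctrl cells with an artery UMI and at 108 UPM (98.1 to 119) in the 199 cells without, and at 138 and 99.1 UPM in cKO. Flt4 was at 65.6 UPM (57.9 to 74.0) with and 83.6 UPM (74.9 to 92.9) without an artery UMI in Ctrl, and at 55.8 and 102 UPM in cKO. The cKO intervals overlapped for Flt1 (112 to 168 and 80.9 to 120 UPM) and not for Flt4 (39.9 to 76.0 and 83.5 to 123 UPM). Kdr intervals overlapped in both libraries, at 216 and 209 UPM in Ctrl and 239 and 216 UPM in cKO. At E8.5, with 12 to 21 cells on each side, the intervals of all 3 receptors overlapped in both libraries, and Flt4 was at 58.1 UPM with and 33.5 UPM without an artery UMI in Ctrl and at 75.9 and 73.4 UPM in cKO. Flt4 is known as a gene of embryonic veins and of lymphatic vessels.

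At E9.5 the receptors were low in cells with no endothelial marker and high from 2 markers on. In Ctrl E9.5, Kdr was at 5.70 UPM in the 4763 cells with no endothelial marker, 19.5 in those with 1 marker, 259 in the 23 cells with 2 markers and 224 in the 139 cells with all 6. In cKO E9.5 the corresponding values were 4.37, 15.1, 111 and 225 UPM. The libraries differed for Kdr in cells with 2 markers (208 to 318 UPM against 82.1 to 147) and not in those with all 6 (208 to 240 against 186 to 269). Flt4 went from 0.53 UPM with no marker to 39.8 with 2 and 78.5 with 6 markers in Ctrl, and from 0.11 to 34.0 and 114 UPM in cKO.

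**Figure D2:**
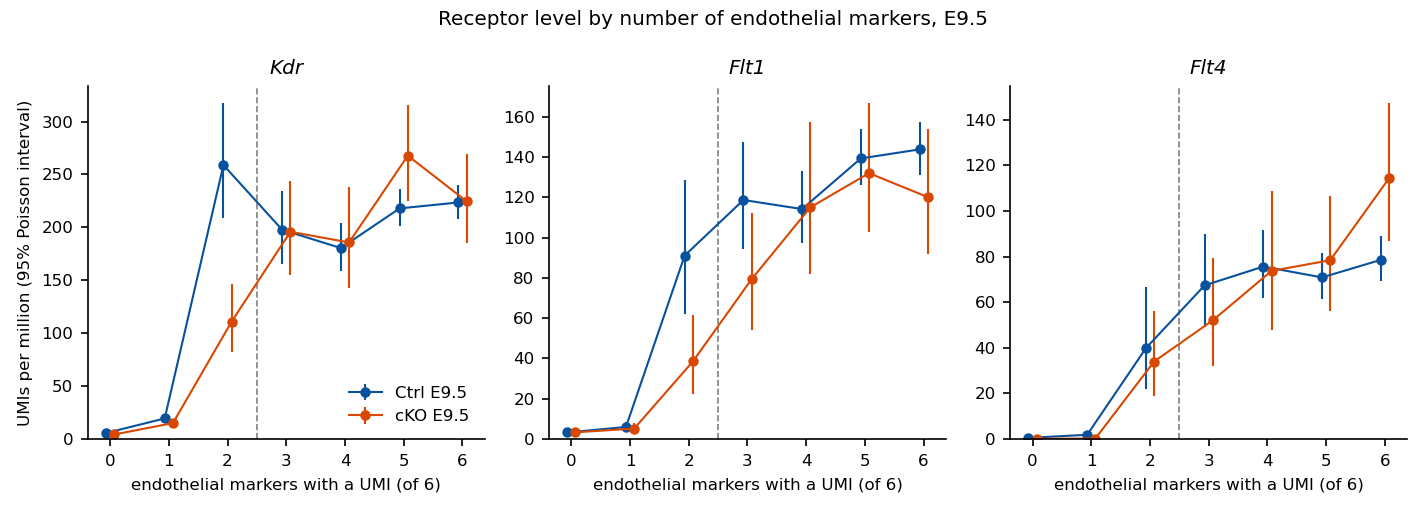
Kdr, Flt1 and Flt4 (UPM, linear axes) in E9.5 cells by the number of 6 endothelial markers with a UMI, for Ctrl (blue) and cKO (orange); bars are exact 95% Poisson intervals and the dashed line is the lower limit of the endothelial group. All 3 receptors stand near 0 in cells with 0 markers and reach their level within the endothelial group at 3 to 6 markers; for Kdr with 2 markers, Ctrl lies at 259 and cKO at 111.

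The genes most like the receptors across cell groups included Egfl7, Emcn and Icam2, endothelial genes that were not themselves gate markers. Likeness was the Pearson correlation of log2(UPM + 10) over the 33 groups of at least 30 cells, which share libraries and depth. It was taken among 5068 genes with a mean of at least 20 UPM over those groups. Kdr was closest to Hhex (r = 0.94) and Egfl7 (0.93), followed by Etv2, Sox17 and Tsc22d4. Among the 5068 genes Flt1 was closest to Esam (0.97) and Emcn (0.96), followed by Tgfb1, Egfl7 and Tmem164. Flt4 itself was not among these genes, and its r with Flt1 was 0.97, above that of Emcn with Flt1. Flt4 was closest to Emcn (0.98) and Esam (0.98), followed by Cldn5, Flt1 (0.97) and Icam2. Etv2, Esam and Cldn5 are gate markers, so their pattern was set in part by the gates. The groups were cut in part by endothelial markers, so other genes higher in endothelium also follow the receptors across them. Likeness to such genes is therefore no independent support for an endothelial pattern. Tsc22d4, Tgfb1 and Tmem164 are not genes of the endothelium alone.

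Most UMIs of the ligands lay outside the endothelial group. Vegfa was low and broadly spread: at E9.5 the highest level was in epithelial cells, 17.0 UPM in Ctrl (252 UMIs) and 13.8 in cKO (62 UMIs). It was followed in Ctrl by pSHF (13.9 UPM), cardiomyocytes (12.6) and aSHF (11.6), and no neighbours among these 4 groups differed beyond counting error. Endothelial cells held 2.85 UPM (Ctrl) and 2.28 UPM (cKO) of Vegfa at E9.5. At E8.5 they held 4.89 UPM in Ctrl (4 UMIs) and 15.0 UPM in cKO (11 UMIs), the highest of the cKO groups, and no neighbours in the order of groups differed beyond counting error in either E8.5 library. Vegfc was higher in mesenchyme than in endothelial cells, at 28.3, 44.0, 28.6 and 30.1 UPM against 2.45, 4.09, 9.05 and 7.97 UPM in endothelial cells, in the order of libraries used above. At E8.5 mesenchyme was above every other group for Vegfc. At E9.5 pSHF (31.0 UPM) did not differ from mesenchyme in Ctrl beyond counting error, nor did BrM (27.4 UPM) in cKO.

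Figf was highest in mesenchyme and MLP cells. It was at 15.9, 24.1, 17.5 and 19.9 UPM in mesenchyme and at 15.6, 16.9, 23.4 and 16.3 UPM in MLP cells, and had 3, 0, 11 and 1 UMIs in endothelial cells. Etv2-positive cells held 10.2 and 11.3 UPM at E8.5, and aSHF cells 11.6 UPM in Ctrl E9.5, where they did not differ from mesenchyme beyond counting error. At E8.5 in Ctrl its levels in mesenchyme and MLP did not differ beyond counting error (log2 difference 0.03, -0.34 to 0.40). Vegfb was found in all groups, from 22.9 UPM in Ctrl E9.5 endothelial cells to 67.2 UPM in Ctrl E8.5 mesenchyme. At E9.5 the endothelial level of Vegfb, 22.9 in Ctrl and 24.5 UPM in cKO, was below that of mesenchyme, 49.7 and 49.6 UPM. Across the 33 groups Figf was most like Pdgfrb (r = 0.89), a receptor of mural and mesenchymal cells, followed by Col26a1, Cthrc1, Clmp and Ebf2. Vegfc was most like Cdh11 (0.80), a cadherin of mesenchyme, followed by Twist2, Sdc2, Pcolce and Foxp2. Vegfa and Vegfb had no close match, with Pla2g12a (0.65) and Anapc11 (0.75) in the first place.

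**Figure D3:**
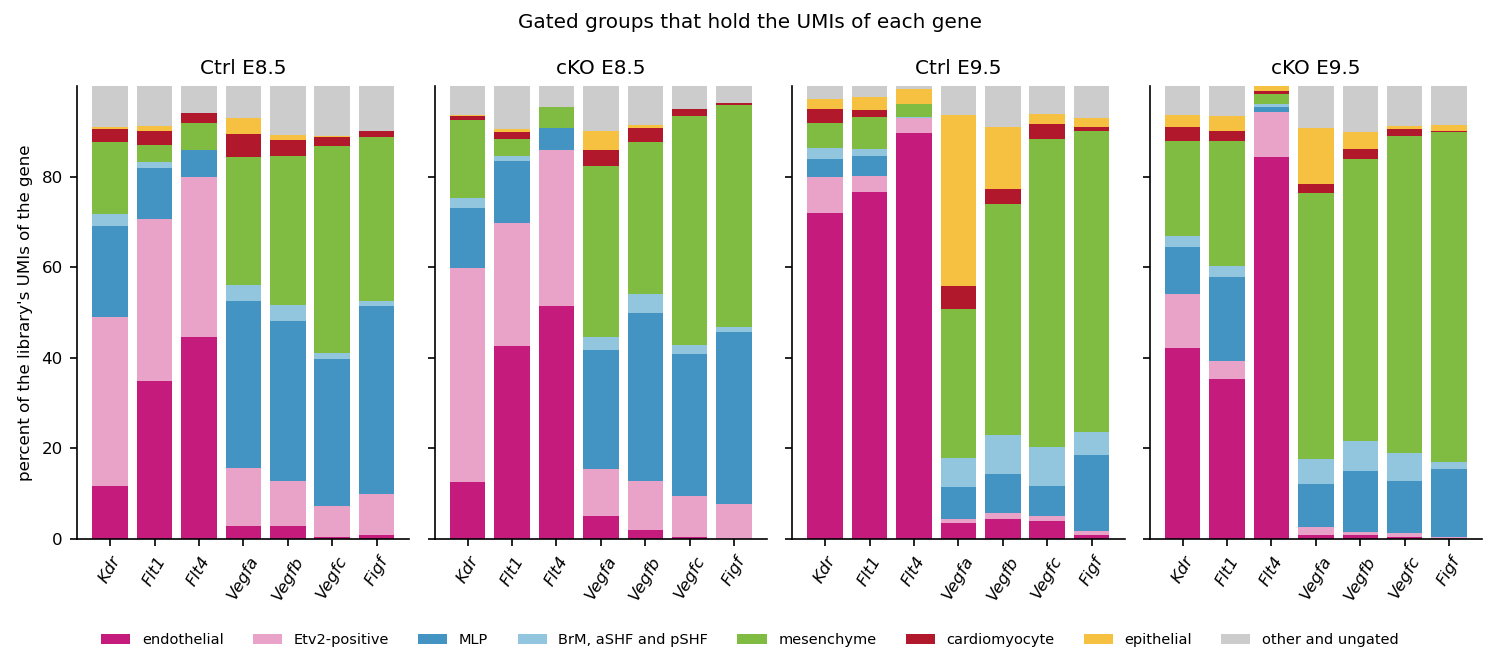
Percent of each library's UMIs of a gene that came from each marker-gated group, as stacked bars that sum to 100 in each library. The endothelial part of Flt4 was 44.7% in Ctrl E8.5 and 89.6% in Ctrl E9.5, while the Vegfc and Figf bars are mostly mesenchyme and MLP.

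Between E8.5 and E9.5 in Ctrl, Kdr was lower in mesenchyme and MLP cells, and more of its UMIs lay in the endothelial group. Kdr in mesenchyme was at 23.5 UPM at E8.5 (173 UMIs in 440 cells) and 2.97 UPM at E9.5 (129 UMIs in 2671 cells), a log2 ratio of -2.99 (-3.33 to -2.65). Only 0.255% of the genes tested in mesenchyme had a lower ratio. In thinned mesenchyme cells 15.6% had a Kdr UMI at E8.5 and 2.74% at E9.5, and before thinning 25% and 4.19%. The E9.5 share is close to that of epithelial cells (1.93%), and at E8.5 only 15 thinned epithelial cells were there to set the background (1 with a Kdr UMI, 0.17% to 31.9%). Beside it in mesenchyme, the summed Etv2-positive markers (Etv2, Lmo2 and Tal1) were at 46.7 UPM at E8.5 and 3.34 UPM at E9.5, and the summed endothelial markers at 7.35 and 3.16 UPM. The part of these cells' endothelial programme in the Kdr level was not tested. Kdr was also lower at E9.5 in MLP cells, with 25.3 and 11.4 UPM (-1.14, -1.51 to -0.79), where the Etv2-positive markers were at 25.9 and 11.4 UPM, and not beyond counting error in cardiomyocytes, with 29.0 and 28.1 UPM. In endothelial cells it was higher at E9.5 by 0.46 (0.20 to 0.73). The endothelial group held 11.7% of all Kdr UMIs at E8.5 and 72.0% at E9.5, with 2.79% and 7.17% of the cells.

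The other members followed different courses with stage. Flt4 in all Ctrl cells was at 3.37 UPM at E8.5 and 7.13 UPM at E9.5 (1.08, 0.75 to 1.42), and in endothelial cells the ratio was 0.68 (0.21 to 1.20). Flt1 was higher at E9.5 in MLP cells, from 3.84 to 7.79 UPM (1.02, 0.39 to 1.67), and not in endothelial cells beyond counting error (0.12, -0.17 to 0.43). Endothelial Vegfb was lower, 52.6 UPM at E8.5 and 22.9 at E9.5 (-1.20, -1.68 to -0.68), and endothelial Vegfc went from 2 to 73 UMIs (1.89, -0.02 to 4.96). Counted over all members with at least 20 UMIs, 1 of 7 passed 2-fold in all cells, 2 of 6 in endothelial cells, 2 of 6 in MLP and 1 of 7 in mesenchyme. The share of all genes past 2-fold was 20.8% in all cells, 17.1% in endothelial cells, 14.1% in MLP and 18.9% in mesenchyme, where the medians of all genes were 0.39, 0.21, 0.31 and 0.32. In Etv2-positive cells 0 of 7 members passed 2-fold, in cardiomyocytes 1 of 5 (Vegfc) and in ungated cells 3 of 6 (Vegfa higher, Kdr and Flt1 lower), against 14%, 18% and 16% of all genes.

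At E8.5 Vegfa and Vegfc were the members that differed most between cKO and Ctrl over all cells, and both were higher in cKO. In all cells summed 0 of 7 members passed 2-fold, where 4.22% of all genes did. Vegfa was at 5.59 UPM in Ctrl and 8.55 in cKO (log2 ratio 0.61, 0.30 to 0.93), and Vegfc at 18.1 and 27.7 UPM (0.62, 0.44 to 0.79). The higher Vegfc was seen in mesenchyme (28.3 and 44.0 UPM, 0.64, 0.39 to 0.89), in MLP cells (17.4 and 24.7 UPM, 0.51, 0.20 to 0.82) and in Etv2-positive cells (10.9 and 23.8 UPM, 1.12, 0.49 to 1.79). Figf was higher in cKO mesenchyme (15.9 and 24.1 UPM, 0.60, 0.26 to 0.94), as was Vegfa (5.44 and 10.2 UPM, 0.90, 0.34 to 1.48). These mesenchyme cells had a median of 15937 UMIs in Ctrl and 22653 in cKO. Cells with exactly 3 mesenchyme markers were 35.2% of the group in Ctrl and 16.8% in cKO, so the group may not hold like cells in both libraries. Vegfb did not differ beyond counting error in all cells (-0.09, -0.20 to 0.01).

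The receptors at E8.5 did not move as a group. In endothelial cells Kdr (0.55, 0.21 to 0.90) and Flt4 (0.69, 0.07 to 1.33) were higher in cKO, from 38 and 55 UMIs for Flt4, and the interval of Flt1 included 0 (0.30, -0.10 to 0.70). In these cells 10 endothelial transcription factors had a median of 0.59, against 0.05 for all genes, with 2 higher and 0 lower past 2-fold. Their part in the receptor values was not tested. In Etv2-positive cells Kdr was higher (0.67, 0.49 to 0.86) and Flt1 lower in cKO (-0.49, -0.94 to -0.04). Kdr was lower in cKO MLP cells, with 25.3 and 19.2 UPM (-0.39, -0.69 to -0.10), and in cardiomyocytes, with 30 and 11 UMIs (-1.33, -2.47 to -0.29). The summed endothelial markers in MLP cells moved with it, at 5.47 UPM in Ctrl and 1.22 UPM in cKO, with 0 and 1 of 6 markers at 0, and the Etv2-positive markers at 25.9 and 16.6 UPM. In the cardiomyocytes the Etv2-positive markers were at 203 UPM in Ctrl and 33.7 UPM in cKO (0 and 1 of 3 at 0), the endothelial markers at 9.68 and 6.32 UPM (3 of 6 at 0 in both), and all 3 of the endothelial transcription factors with enough UMIs were lower (median -2.94). Their part in the Kdr values was not tested. By group, the members past 2-fold were 0 of 4 in endothelial cells, 1 of 7 in Etv2-positive cells (Vegfc), 0 of 6 in MLP and 0 of 6 in mesenchyme, against 6.56%, 5.31%, 4.25% and 4.39% of all genes. In cardiomyocytes 1 of 3 passed (Kdr, lower), against 6.82%, and in ungated cells 1 of 6 (Vegfa, higher, from 6 and 17 UMIs), against 6.12%.

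At E9.5 the 3 receptors were lower in cKO when all cells were summed. Kdr was at 25.2 UPM in Ctrl (2377 UMIs) and 8.96 UPM in cKO (938 UMIs), a log2 ratio of -1.49 (-1.60 to -1.38). Flt1 was at 15.1 and 5.47 UPM (-1.47, -1.61 to -1.33) and Flt4 at 7.13 and 1.65 UPM (-2.11, -2.36 to -1.86). These were the 3 of 7 members past 2-fold, where 13.4% of all genes passed in either direction around a median of -0.26. Vegfa was lower (7.08 and 4.80 UPM, -0.56, -0.73 to -0.39), Vegfc higher (19.4 and 25.2 UPM, 0.38, 0.29 to 0.47) and Figf higher (12.1 and 16.0 UPM, 0.40, 0.29 to 0.51), while Vegfb was at 44.9 and 46.6 UPM.

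Within endothelial cells the receptors were nearly level between the E9.5 libraries. The log2 ratio was 0.08 (-0.08 to 0.24) for Kdr, -0.24 (-0.46 to -0.02) for Flt1 and 0.16 (-0.11 to 0.42) for Flt4, where the median of all genes was -0.20. In these cells the intervals of Kdr and Flt4 lay above that median, and that of Flt1 included it. Of the members 0 of 6 passed 2-fold there, against 9.19% of all genes. When each group of the cKO library was weighted by its share in Ctrl, the log2 ratios over all cells were -0.04 for Kdr, -0.20 for Flt1 and 0.06 for Flt4, where the median of all genes was -0.22. With this weighting 0 of 7 members passed 2-fold, against 9.15% of all genes. The same weighting gave -0.31 for Vegfa, 0.16 for Vegfc and 0.09 for Figf. The endothelial group made up 7.17% of Ctrl and 1.61% of cKO cells. The endothelial part of Kdr UMIs was 72.0% in Ctrl and 42.1% in cKO, and that of Flt1 UMIs 76.7% and 35.3%, whereas Flt4 stayed mostly endothelial (89.6% and 84.4%). The epithelial part of Vegfa UMIs was 37.8% in Ctrl and 12.4% in cKO, where epithelial cells made up 14.1% and 3.59% of the libraries.

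**Figure D4:**
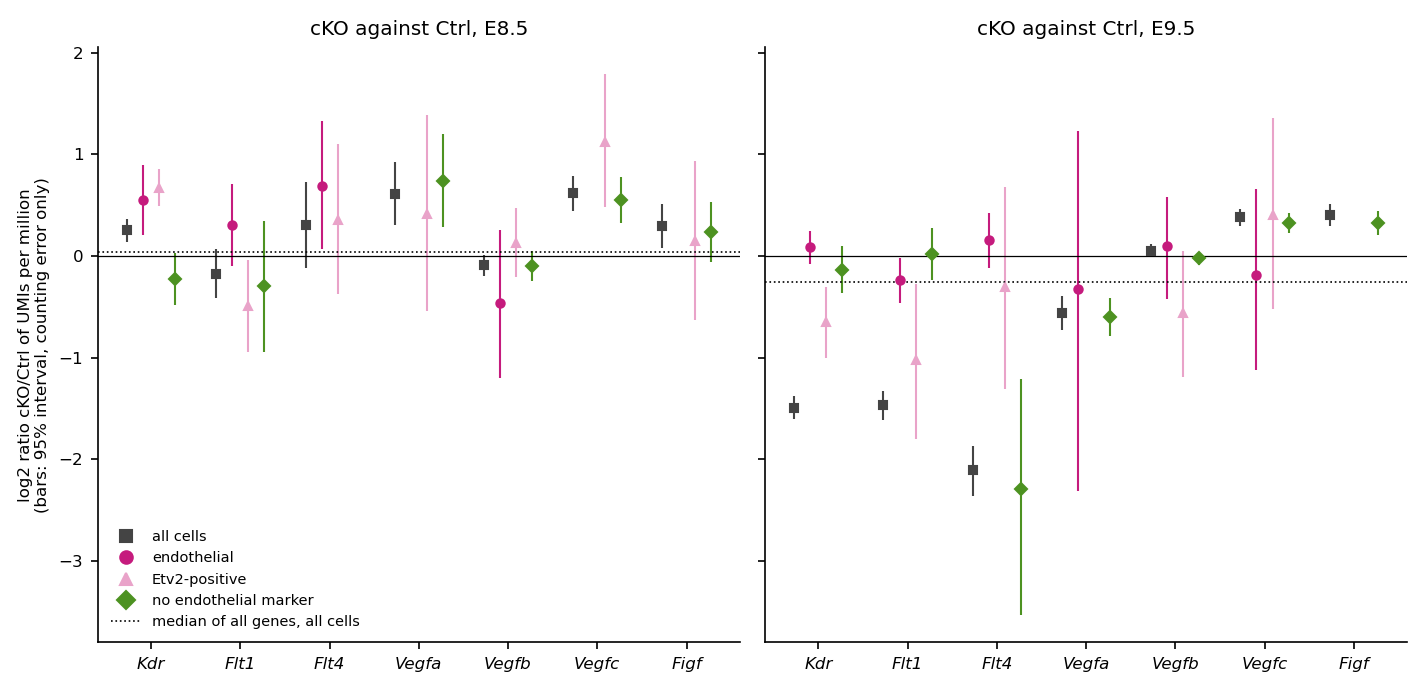
Log2 ratio of cKO to Ctrl (of UPM) for each VEGF gene, with E8.5 in the left panel and E9.5 in the right. The groups are all cells, endothelial cells, Etv2-positive cells and a set labelled no endothelial marker. That set, chosen after seeing the data, has no UMI of the endothelial markers or of Etv2, Lmo2 and Tal1. Bars are exact 95% intervals and the dotted line is the median of all genes in all cells. At E9.5 the all-cell ratios of Kdr, Flt1 and Flt4 lie at -1.49, -1.47 and -2.11, and the endothelial ratios lie within 0.24 of 0.

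In Etv2-positive cells Kdr and Flt1 were lower in the E9.5 cKO library. Kdr was at 165 UPM in Ctrl and 105 UPM in cKO (-0.65, -0.9996 to -0.30) and Flt1 at 43.5 and 21.4 UPM (-1.02, -1.80 to -0.28). Flt4 was at 19.5 and 15.8 UPM, from 22 and 17 UMIs (-0.30, -1.31 to 0.68). Flt1 was the 1 of 5 members past 2-fold, against 11.1% of all genes, in groups of 61 and 50 cells. A Kdr UMI was found in 62.3% (47.9% to 75.2%) of thinned Ctrl cells and 41.7% (27.6% to 56.8%) of cKO cells, and before thinning in 72.1% and 54%. The markers that define these cells also stood lower in cKO, with Etv2, Lmo2 and Tal1 summed at 1111 UPM in Ctrl and 818 UPM in cKO. The summed endothelial markers were at 222 and 184 UPM (3 and 1 of 6 at 0), although the median number per cell was 0 and 1. Of 9 endothelial transcription factors 3 were lower past 2-fold and 0 higher (median -0.67, against -0.21 for all genes). Their part in the Kdr and Flt1 values was not tested.

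In MLP, aSHF and cardiomyocyte cells Kdr and Vegfa were lower in the E9.5 cKO library. Kdr was at 11.4 and 6.27 UPM in MLP cells (-0.87, -1.29 to -0.44), at 21.0 and 4.95 UPM in aSHF cells (38 and 6 UMIs, -2.08, -3.62 to -0.83) and at 28.1 and 15.6 UPM in cardiomyocytes (-0.85, -1.51 to -0.22). The last ratio was 0.00 when 4 cardiomyocyte markers were required. Vegfa was at 5.72 and 3.14 UPM in MLP (-0.87, -1.48 to -0.26), 11.6 and 2.48 UPM in aSHF (21 and 3 UMIs, -2.23, -4.62 to -0.49) and 12.6 and 5.20 UPM in cardiomyocytes (34 and 10 UMIs, -1.27, -2.46 to -0.23). Its epithelial ratio included 0 (-0.31, -0.73 to 0.10). In pSHF cells Vegfa was at 13.9 and 11.4 UPM (-0.29, -1.42 to 0.87) and Kdr had 3 and 4 UMIs. In BrM cells the intervals of Vegfa (0.11, -1.46 to 1.66) and Kdr (-0.34, -1.47 to 0.74) included 0. The summed endothelial markers in aSHF cells were at 4.98 UPM in Ctrl and 2.48 UPM in cKO, with 1 and 4 of the 6 markers at 0. In cardiomyocytes they were at 8.52 and 2.60 UPM, with 3 of 6 at 0 in both. The Etv2-positive markers were at 64.2 and 50.4 UPM in aSHF cells, 111 and 80.2 UPM in cardiomyocytes and 11.4 and 12.0 UPM in MLP cells, and the part of both lists in the Kdr values was not tested. The aSHF markers themselves were at 649 and 424 UPM in the aSHF cells. Cells with exactly 3 gate markers were 42.6% of the MLP group in Ctrl and 59.7% in cKO. In the aSHF group they were 28.3% and 58.7%, and in cardiomyocytes 26.1% and 36.3%. These groups may therefore not hold like cells in both libraries. The members past 2-fold were 0 of 6 in MLP, 2 of 5 in aSHF (Kdr and Vegfa) and 1 of 5 in cardiomyocytes (Vegfa), against 8.94%, 9.78% and 9.39% of all genes. In BrM 1 of 4 (Figf), in pSHF 0 of 3 and in ungated cells 0 of 6 passed, against 10.5%, 10.5% and 9.7%.

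Figf and Vegfc differed between E9.5 libraries by group. Figf was lower in cKO MLP cells (23.4 and 16.3 UPM, -0.52, -0.80 to -0.24), a ratio that was 0.01 when cells were gated after thinning to 5000 UMIs. It was also lower in BrM cells (7.56 and 3.58 UPM, -1.08, -2.08 to -0.15), and slightly higher in mesenchyme (17.5 and 19.9 UPM, 0.19, 0.05 to 0.32). In epithelial cells Figf had 24 UMIs in Ctrl and 20 in cKO, which is 1.62 and 4.44 UPM (1.45, 0.52 to 2.37), while the mesenchyme markers there were at 291 and 299 UPM. Vegfc was higher in MLP cells (14.9 and 19.7 UPM, 0.40, 0.10 to 0.72), where the ratio was -0.03 with 2 markers required, and lower in pSHF cells (31.0 and 16.1 UPM, -0.95, -1.79 to -0.12), where it was 0.20 with 2 markers required. In mesenchyme the interval of Vegfc included 0 (0.07, -0.03 to 0.18). The median of all genes was -0.23 in MLP, -0.25 in BrM, -0.22 in pSHF, -0.19 in mesenchyme and -0.21 in epithelial cells. The intervals of Figf in BrM and of Vegfc in pSHF included these medians. That of Vegfc in mesenchyme lay above its median.

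Flt4 transcripts outside the endothelium were rare and rarer still in cKO at E9.5. Cells with no UMI of the endothelial markers or of Etv2, Lmo2 and Tal1, a selection made after seeing the data, numbered 4193 in Ctrl and 5380 in cKO. They held 35 and 9 Flt4 UMIs, 0.50 and 0.10 UPM (-2.29, -3.54 to -1.21), while Kdr (-0.14, -0.37 to 0.09) and Flt1 (0.02, -0.24 to 0.27) did not differ beyond counting error in them. Flt4 was the 1 of 7 members past 2-fold in these cells, against 12.3% of all genes. Mesenchyme held 19 and 4 Flt4 UMIs (-2.75, -4.76 to -1.16) and epithelial cells 22 and 2 (-1.75, -4.88 to 0.28). In thinned cells 0.50% of mesenchyme and 1.79% of epithelial cells had a Flt4 UMI in Ctrl. The mesenchyme share, the lower of these, is not read as expression. Ctrl epithelial cells are no clean background for Flt4. Their level, 1.49 UPM, was above that of mesenchyme, 0.44 UPM, beyond counting error (log2 difference 1.77, 0.81 to 2.73). The endothelial markers summed in mesenchyme were at 3.16 UPM in Ctrl and 1.87 UPM in cKO, and in epithelial cells at 3.38 and 2.22 UPM, with 0 of 6 at 0 except for 2 of 6 in cKO epithelial cells. Their part in the Flt4 counts was not tested. Mesenchyme had 1 of 7 members past 2-fold (Flt4) and epithelial cells 2 of 7 (Figf and Flt4), against 8.69% and 9.27% of all genes.

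Other genes of the pathway were read in endothelial cells at E9.5, from lists chosen with earlier results of these data known. The counts below stand against 9.19% of all genes past 2-fold in these cells, with a median of -0.20. Of the ligand handling genes and co-receptors, 0 of 3 tested passed 2-fold (median 0.27). Nrp1, the co-receptor that presents VEGF-A to Kdr, was at 98.7 UPM in Ctrl and 50.1 in cKO (-0.98, -1.31 to -0.66). Nrp2, the co-receptor for VEGF-C, was at 118 and 142 UPM (0.27, 0.06 to 0.47), and Pgf, a ligand of Flt1, at 3.22 and 6.26 UPM (0.96, -0.21 to 2.03). At E8.5 the order was not the same for Nrp1, with 44.0 and 91.3 UPM (1.05, 0.45 to 1.68), and Nrp2 was at 40.4 and 80.4 UPM (0.99, 0.36 to 1.66).

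Of the sprouting and tip cell genes, 2 of 7 were past 2-fold and both were lower (median -0.30), while Notch4 was at 11.9 and 17.1 UPM (0.52, -0.12 to 1.13). Notch4 was named after its value was seen. Esm1, a secreted proteoglycan of tip cells, was at 16.6 and 5.69 UPM (-1.54, -2.64 to -0.62), Angpt2, a ligand of Tek, at 5.33 and 2.28 UPM (-1.23, -3.17 to 0.23), and Dll4, the Notch ligand of tip and artery cells, at 20.5 and 12.0 UPM (-0.77, -1.50 to -0.11). The artery genes had 2 of 4 lower (median -0.87): Gja5 (10.7 and 3.99 UPM, -1.42, -2.78 to -0.31) and Hey1, a Notch target (67.1 and 31.3 UPM, -1.10, -1.53 to -0.70), with Efnb2, an ephrin of arteries, at -0.64 (-1.23 to -0.09). Of the vein and lymphatic genes 1 of 4 was lower (median -0.33), namely Prox1, the factor that sets lymphatic identity, with 47 and 3 UMIs (-1.77, -4.10 to -0.13). Nr2f2, which sets vein identity, was at 99.0 and 125 UPM (0.33, 0.11 to 0.55) and Ephb4 at 38.5 and 29.0 UPM (-0.41, -0.87 to 0.02).

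Of the endothelial transcription factors 1 of 10 was higher and 1 lower past 2-fold (median -0.27). Erg had 310 UMIs in Ctrl and 7 in cKO, 38.4 and 3.99 UPM (-3.27, -4.60 to -2.21), Sox18 was at 59.7 and 124 UPM (1.05, 0.81 to 1.28) and Etv2 at 109 and 183 UPM (0.75, 0.56 to 0.94). Since the 2 libraries were counted on different gene tables, the Erg difference cannot be told apart from a difference between gene models. At E8.5, on the same gene table, Erg had 30 and 21 UMIs (-0.36, -1.24 to 0.49). No endocardium gene passed 2-fold among 3 (median -0.25; Npr3 -0.64, Plvap -0.25, Nfatc1 0.22), nor did a regulator of Vegfa among 4 (median 0.02; Hif1a -0.24, Epas1 0.10, Arnt 0.07).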

How the data were processed

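Single cells were profiled with a droplet 3′ kit (v2). The authors deposited Cell Ranger count matrices of UMIs per gene and cell (version 3.1.0 in the submitters' processing notes, 3.0.2 in the E8.5 file headers; mm10), raw and not normalized. All barcodes were kept, the same numbers as the captured cells in the study's summary except for 1 fewer in cKO E9.5. The cKO E9.5 table holds other genes, so sums were scaled to the UMIs of the 27514 shared genes (99.4% to 99.9% of UMIs). The lowest barcodes held 500 to 4415 UMIs, and no doublet caller was run. Doublets were instead weighed by leaving out cells with markers of several classes.

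UMIs were summed per library and gate (at least 3 of 6 markers). Endothelial, epithelial, cardiomyocyte, neural, neural crest and blood classes were compared first, and a cell needed more markers of its class than of the others. Cells left over were tested for Etv2-positive, then compared among MLP, BrM, aSHF and pSHF, then tested for mesenchyme. Ratios used exact conditional binomial intervals, levels exact Poisson intervals and shares Clopper-Pearson intervals at 95%, on genes with at least 20 UMIs in both sums together and against a 2-fold threshold. The floor for a count of 0 was 3 counts. Scripts ran in Python 3.11.15 with pandas 2.3.3, scipy 1.17.1 and numpy 2.4.6, with edgeR 4.0.16 in R 4.3.3 only for TMM factors, and were checked on simulated data. All 7 members are named, with up to 3 genes of each pathway list by size of the E9.5 endothelial ratio and the 5 genes most like each member. The members and lists were chosen with earlier results of these data known. Promoter windows came from RefSeq (GRCm38.p6) by symbol, and all 7 members matched. Those of Kdr and Flt1 lie inside longer gene models and are not printed.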

Additional observations from a re-analysis of the deposited data

Results flagged for a closer look

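The cKO to Ctrl ratios of Kdr and Vegfa went in opposite directions at E8.5 and E9.5, with intervals that excluded 0 at both stages. For Kdr in Etv2-positive cells the log2 ratio was 0.67 at E8.5 and -0.65 at E9.5. For Kdr in all cells it was 0.25 at E8.5 and -1.49 at E9.5. Cells with no UMI of the endothelial and Etv2-positive markers were chosen after seeing the data. In them the Kdr ratios were -0.23 (-0.48 to 0.03) and -0.14 (-0.37 to 0.09), with intervals that included 0. At the gate shares of Ctrl the Kdr ratios over all cells were 0.32 and -0.04. The part of cell composition in the opposite directions was not tested. For Vegfa in all cells the log2 ratio was 0.61 at E8.5 and -0.56 at E9.5. With 1 library per group the difference between stages was not tested, and stage, dissection and library cannot be told apart.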

How the results depend on the processing

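No paired analysis was possible because each group has 1 library. Leaving out a replicate was not possible for the same reason. At E8.5 the count of members past 2-fold in all cells went from 0 to 1 with a mean over cells and to 2 at a 1.5-fold threshold, and in endothelial cells from 0 to 1 with 2 gate markers and to 1 at 1.5-fold. At E9.5 the count of 3 in all cells was 0 at the gate shares of Ctrl and 1 in cells with no UMI of the endothelial and Etv2-positive markers, an alternative chosen after seeing the data. In those same cells the log2 ratio was 0.0173 for Flt1 at E9.5 and -0.23 for Kdr at E8.5, and at the gate shares of Ctrl it was 0.0630 for Flt4 at E9.5, all with the opposite sign to the values over all cells. With 2 gate markers the sign turned for Vegfc in MLP (-0.0260) and pSHF (0.20) and for Vegfb in aSHF (0.00739) at E9.5, and with 4 markers for Kdr in cardiomyocytes (0.00470). With gates from cells thinned to 5000 UMIs it turned for Figf in MLP at E9.5 (0.00582) and Vegfb in mesenchyme at E8.5 (0.00637). For these the cause was not tested. Of the ratios under all alternatives, 733 stayed within the 95% interval of the reported value, 57 lay outside it, and the 9 named above turned the sign of a ratio whose interval excluded 0. In endothelial cells at E9.5 the ratio ranged from -0.04 to 0.29 for Kdr, -0.38 to -0.03 for Flt1 and 0.04 to 0.41 for Flt4 over 10 settings. Of the shares of cells with a UMI, 295 lay outside the interval of the reported value under an alternative and 83 within it. With a pseudocount of 1 UPM the most alike gene was another for 4 members. Endothelial cells at E8.5 were too few, under 30 in a library, for values with 4 markers, gates from thinned cells or without possible doublets.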
